A study of Homo sapiens with 18 samples.

Results

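The Wnt ligands, receptors and pathway components were 46 protein-coding genes, chosen as the rows of both count tables whose Ensembl identifier carries 1 of 46 listed symbols in the GENCODE annotation of GRCh38, and all 46 were found among the 61541 genes listed. Wnt proteins are secreted, lipid-modified ligands that bind Frizzled receptors together with the co-receptors LRP5 and LRP6. In the canonical branch this binding stops the APC and Axin destruction complex from marking β-catenin for degradation, and β-catenin then enters the nucleus and activates genes with TCF/LEF transcription factors, while ROR receptors and several Frizzled proteins also serve branches that do not use β-catenin. Secreted antagonists (DKK, SFRP, WIF1), the E3 ligases RNF43 and ZNRF3, and the feedback inhibitors AXIN2 and NKD limit the signal, and in the lung the pathway is best known for its part in branching and in alveolar progenitor cells.

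RNA was sequenced from A549 cells, an established human lung adenocarcinoma line grown in DMEM high glucose medium with serum, in 6 groups of 3 libraries. Cells kept in 5 mM sodium propionate (SP), the salt of a short-chain fatty acid, were taken after 3 h and 24 h beside an untreated control of 24 h, and after 3 days and 12 days beside an untreated control of 3 days. SP 3 h was therefore set against a control of 24 h and SP 12 days against a control of 3 days, so that in these comparisons the treatment and the time in culture cannot be told apart. All groups are of 1 cell line, and in bulk RNA fewer cells that express a gene and less RNA of it per cell cannot be told apart.

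The number of reads assigned to genes ranged from 14187401 to 43765330 among the 18 libraries. The 3 h and 24 h table was the more variable, with a biological coefficient of variation of 0.199 against 0.0996 in the 3 and 12 days table, and 14 of its 39 tested members had a group in which the highest library exceeded the lowest by over 2-fold, against 6 of 40 members in the other table. Replicate 3 of SP 12 days stood apart from replicates 1 and 2 on the second principal component (2.63 against 13.6 and 15.4), and values without it are given beside several members. The epithelial keratins KRT8 and KRT18 were abundant in every group (mean of 611 to 1121 RPKM for KRT8, reads per kilobase of exon, scaled to library size). All 5 epithelial markers listed (KRT8, KRT18, KRT19, EPCAM and CDH1) rose at 24 h, 3 days and 12 days. Their median log2 fold changes were 1.44, 1.36 and 1.23, and 16.8%, 25.2% and 26.4% of all genes rose. The 7 markers of immune, endothelial and fibroblast cells summed to means of 0.521 to 3.45 RPKM, with 0 to 2 reads of PTPRC and 0 to 6 of DCN per library. Of these 7, LUM, a matrix proteoglycan of fibroblasts, rose at 3 days (log2 fold change 2.04 ± 0.27 (SE), adjusted p = 1.4e-05) and at 12 days (3.03 ± 0.25 (SE), adjusted p = 8.1e-08); its part in the results was not tested.

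A member is said to have risen or fallen at a Benjamini-Hochberg adjusted p under 0.05 in edgeR's quasi-likelihood test over all genes of the table, and the study's own threshold, an adjusted p under 0.0001 with a change of at least 2-fold, is given beside it. The study applied that threshold in DESeq2, and here it is applied to edgeR's values unless DESeq2 is named. At 3 h, 7 of 39 tested members rose and 3 fell, while 7.39% of all tested genes rose and 4.11% fell. At 24 h, 14 of 39 rose and 1 fell, against 16.8% and 12% of all genes. At 3 days, 24 of 40 members (60%) rose and 5 (12.5%) fell, against 25.2% and 23.3% of all genes. At 12 days, 21 of 40 rose (52.5%) and 7 fell (17.5%), against 26.4% and 23.4%. By the median, the members lay more on the side of higher RNA than all genes did at each time. Their median log2 fold change was 0.19 at 3 h, 0.56 at 24 h, 0.63 at 3 days and 0.48 at 12 days, where the median of all genes lay between -0.02 and 0.00. At 3 h both the rises (17.9%) and the falls (7.69%) exceeded the shares of all genes. With a correction for GC content and gene length, 15 members rose at 24 h and 6 fell, where 3359 and 2605 of 17377 genes did. The 6 were WNT3, WNT7A, FZD2, FZD8, AXIN1 and CTNNB1. Leaving out SP 3 h replicate 2 lowered the rises at 3 h from 7 to 4, where 621 of 17816 genes rose.

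The study threshold was passed by 11 members at 3 days and by 11 at 12 days, against 8.44% and 9.11% of all tested genes. It was passed by 1 member at 24 h (0.685% of all genes) and by 0 at 3 h (0% of all genes) in edgeR. At 3 h 13 of the 39 members had an unadjusted p under 0.05, as did 4367 of all 17377 genes tested. DESeq2 put 6 members past the study threshold at 3 h, and 415 of 17377 genes. The count of 1 at 24 h, DKK3, became 0 with replicate number as a block (2 of 17377 genes) and 6 with DESeq2 (1192 of 17377). The count at 12 days was 7 without control replicate 2 or 3 (1211 of 18218 and 1206 of 18172 genes). In edgeR, 14 members passed the study threshold in at least 1 comparison with control: WNT3, WNT3A, WNT5B, WNT9A, WNT10B, WNT11, FZD8, ROR2, DKK1, DKK3, SFRP1, TCF7, TCF7L1 and NKD2. DESeq2 also put WNT4 past it at 12 days (1.32, adjusted p = 8.9e-05) and FZD4 and FZD9 at 3 h (adjusted p = 1.8e-10 and 1.1e-06). FZD7 and AXIN2 passed it in DESeq2 at 3 days (1.05 and 1.17, adjusted p = 3e-09 and 3.7e-09), and NKD1 at 24 h and 3 days (1.91 and 2.36, adjusted p = 2.1e-10 and 4.8e-05). With DESeq2, 1774 of 17773 genes passed it at 3 days and 1900 at 12 days. Each control is shared by 2 comparisons, so calls at 3 h and 24 h, or at 3 and 12 days, are not independent of each other.

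**Figure D1:**
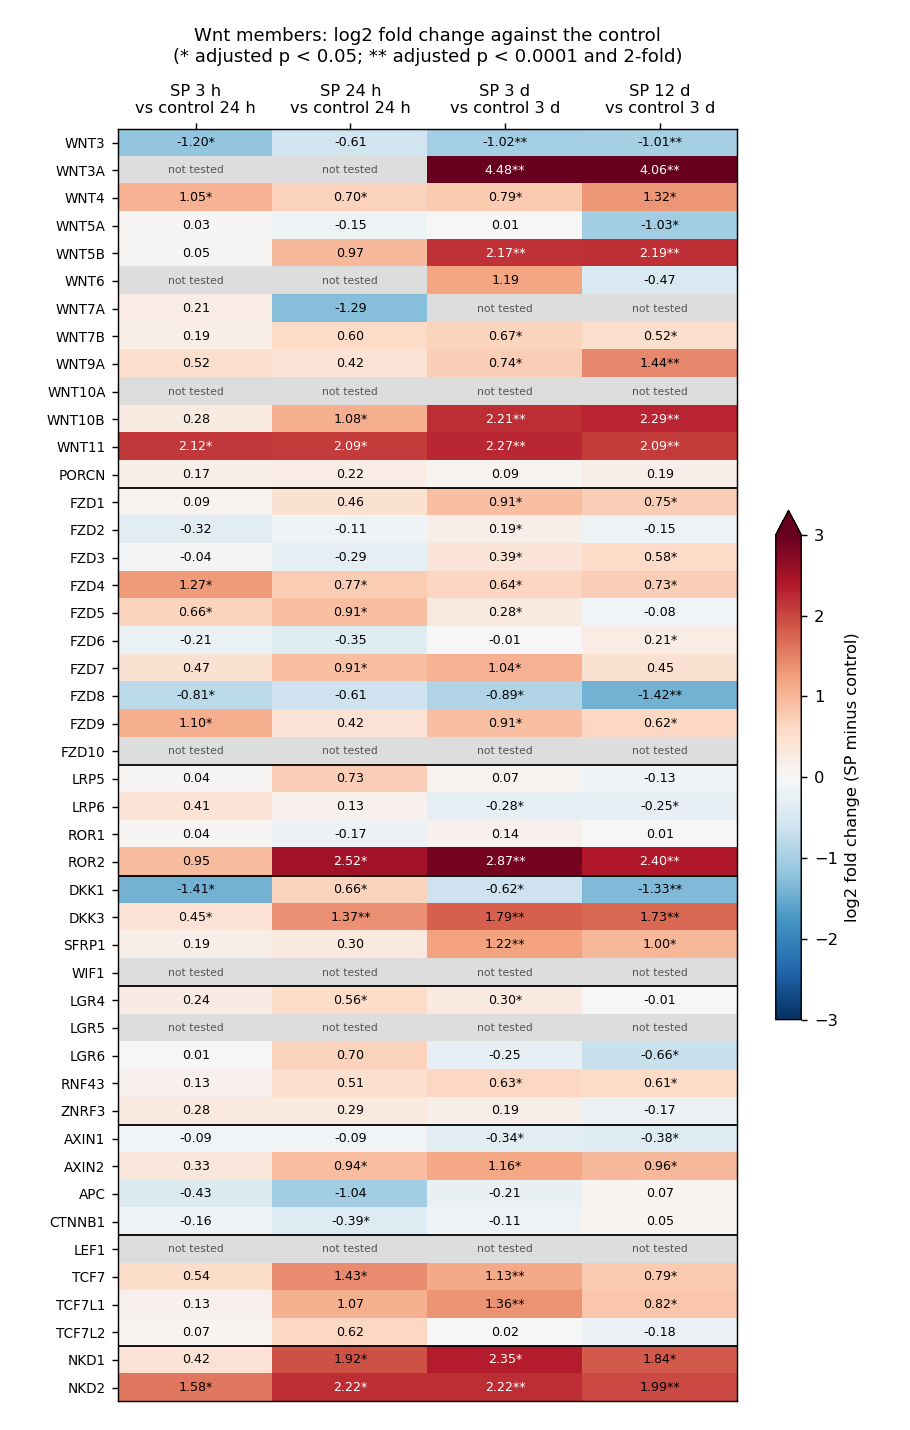
Log2 fold change of the 46 members (rows, in order of role) in the 4 comparisons with control (columns); red is higher and blue lower in SP, 1 asterisk marks an adjusted p under 0.05, 2 asterisks the study threshold, and grey cells were not tested. WNT11 and NKD2 are red in all 4 columns, WNT3 and FZD8 blue in all 4, and DKK1 is blue at 3 h, red at 24 h and blue at 3 and 12 days.

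Rises at all 4 times were seen for 5 of the 38 members tested in both tables: WNT4, WNT11, FZD4, DKK3 and NKD2. Of all 16654 genes tested in both tables, 3.58% rose at all 4 times. The comparisons share controls for members and all genes alike, and no test sets the 5 members against that share. Falls at 3 of the 4 times were seen for WNT3, FZD8 and DKK1. The share of all genes with such falls was not counted, so they are not read as a trait of the members. The promoters of WNT4, FZD4 and NKD2 are shown as those of members that rose in each comparison, without WNT11 and DKK3. That of DKK1, the most abundant member in both controls, is shown because it alone among the 41 of members held a searched form of the TCF/LEF motif. RefSeq's promoter table (GRCh38.p14, 250 bases before to 50 bases after a start used there) held WNT4 (chr1:22143048-22143347, minus strand), FZD4 (chr11:86955346-86955645, minus strand), NKD2 (chr5:1008552-1008851, plus strand) and DKK1 (chr10:52314031-52314330, plus strand), each on its gene's own strand. Those of FZD4, NKD2 and DKK1 end in the first bases of the gene as annotated in GENCODE. That of WNT4 lies inside the gene, whose annotated start is at base 22143969. In the first 3, capitals mark every CpG, the dinucleotide that can be methylated, and they hold 47, 40 and 35 of them; in DKK1, capitals mark a match to the TCF/LEF motif CTTTGAA.
WNT4: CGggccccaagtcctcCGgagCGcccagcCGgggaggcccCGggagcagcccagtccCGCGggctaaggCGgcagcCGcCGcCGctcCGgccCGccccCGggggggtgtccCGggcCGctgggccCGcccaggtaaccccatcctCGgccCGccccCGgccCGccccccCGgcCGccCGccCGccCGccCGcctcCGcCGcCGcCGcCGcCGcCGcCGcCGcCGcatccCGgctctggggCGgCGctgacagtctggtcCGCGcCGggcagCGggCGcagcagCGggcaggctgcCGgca
FZD4: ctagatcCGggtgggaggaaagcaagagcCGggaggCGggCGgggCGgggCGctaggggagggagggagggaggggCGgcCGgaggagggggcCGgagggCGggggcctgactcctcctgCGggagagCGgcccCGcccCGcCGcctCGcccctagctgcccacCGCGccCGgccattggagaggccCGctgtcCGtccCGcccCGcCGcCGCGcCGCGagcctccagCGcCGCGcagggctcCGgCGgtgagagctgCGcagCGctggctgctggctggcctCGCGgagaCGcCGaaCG
NKD2: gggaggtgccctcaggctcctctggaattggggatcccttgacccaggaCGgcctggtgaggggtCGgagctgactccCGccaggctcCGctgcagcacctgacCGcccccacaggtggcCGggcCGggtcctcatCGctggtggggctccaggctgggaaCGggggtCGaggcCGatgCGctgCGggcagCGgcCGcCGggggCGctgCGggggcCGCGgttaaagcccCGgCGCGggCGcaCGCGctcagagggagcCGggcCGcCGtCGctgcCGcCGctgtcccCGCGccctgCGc
DKK1: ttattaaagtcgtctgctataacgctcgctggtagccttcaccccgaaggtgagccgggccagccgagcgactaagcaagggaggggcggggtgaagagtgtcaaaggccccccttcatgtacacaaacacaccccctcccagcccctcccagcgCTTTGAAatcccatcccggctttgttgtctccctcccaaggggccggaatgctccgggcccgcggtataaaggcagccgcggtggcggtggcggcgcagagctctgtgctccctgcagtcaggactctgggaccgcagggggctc

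The table held 41 promoters of 31 members, with a median of 25 CpG per promoter against 14 over all 35116 promoters. The letters CTTTGAT and CTTTGAA were searched on both strands, and since they differ in their last letter they do not overlap. Other forms of the motif were not searched. A match was found in 1 of the 41 member promoters (2.44%), that of DKK1, 95 bases before the gene's start, and in 6.86% of all promoters. Among the promoters printed, WNT4's was the richest in CpG and DKK1's, with 20, the poorest.

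Of the 12 ligands and PORCN, the acyltransferase that attaches the lipid to them, 11 were tested at 3 and 12 days, where 7 rose at each time while 1 fell at 3 days and 2 at 12 days. Of all genes 25.2% rose and 23.3% fell at 3 days, and 26.4% and 23.4% at 12 days. Of the ligands that rose, WNT3A, WNT5B, WNT10B and WNT11 passed the study threshold at both times, as did WNT3, which fell. Of all genes 8.44% passed that threshold at 3 days and 9.11% at 12 days. WNT11, a ligand mainly known for signalling without β-catenin, rose by more than 4-fold at each of the 4 times. Its normalized counts were 15.2, 16.5 and 21.0 in the 3 control libraries of 24 h, 73.6, 93.1 and 67.0 at SP 3 h and 63.4, 82.9 and 82.0 at SP 24 h, and 24.9, 24.8 and 23.4 in the control of 3 days, 106, 139 and 109 at SP 3 days and 114, 93.3 and 107 at SP 12 days. Every SP library lay above every control library of its table. The log2 fold changes were 2.12 ± 0.24 (SE), adjusted p = 0.0011 at 3 h, 2.09 ± 0.23 (SE), adjusted p = 0.00031 at 24 h, 2.27 ± 0.19 (SE), adjusted p = 1.1e-07 at 3 days and 2.09 ± 0.19 (SE), adjusted p = 2.3e-07 at 12 days. WNT11 gave a mean of 0.572 RPKM in the control of 3 days and 2.77 at SP 3 days.

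WNT10B, a canonical ligand, rose at every time except 3 h. Its normalized counts were 74.6, 81.4 and 72.3 in the control of 24 h, 95.7, 87.2 and 93.6 at SP 3 h and 205, 141 and 139 at SP 24 h. In the other table they were 23.2, 12.4 and 27.6 in the control, 119, 85.4 and 91.4 at SP 3 days and 92.0, 131 and 90.8 at SP 12 days. SP libraries exceeded all controls at each time, yet the difference passed the test at 24 h (log2 fold change 1.08 ± 0.19 (SE), adjusted p = 0.0027), 3 days (2.21 ± 0.26 (SE), adjusted p = 4.3e-06) and 12 days (2.29 ± 0.26 (SE), adjusted p = 2.3e-06) and not at 3 h (adjusted p = 0.43). WNT5B, which signals mostly without β-catenin, had 12.9, 12.4 and 17.0 normalized counts in the control of 3 days, 57.0, 69.0 and 65.6 at SP 3 days and 51.1, 44.8 and 95.6 at SP 12 days. It rose by 2.17 ± 0.32 (SE), adjusted p = 3.6e-05, on the log2 scale at 3 days and by 2.19 ± 0.31 (SE), adjusted p = 2.7e-05, at 12 days, with the third SP 12 days library the highest of all (1.74, adjusted p = 3.8e-06 without it). At 24 h its 40.1, 53.2 and 51.1 against 11.1, 30.3 and 31.1 in the control missed the threshold (adjusted p = 0.062) and passed it with replicate number as a block (1.01, adjusted p = 0.032), though not with the correction for GC content and gene length added to the block (0.67, adjusted p = 0.057).

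WNT3A, the prototype of the canonical ligands, was close to silent in the controls. It had 1, 0 and 2 reads in the control of 3 days, 27, 23 and 19 at SP 3 days and 10, 15 and 37 at SP 12 days. The ratio of summed reads was 25.0 at 3 days (95% counting interval 8.20 to 124) and 19.0 at 12 days (6.22 to 94.8), and the fitted difference passed the study threshold at 3 days (adjusted p = 2.9e-05) and at 12 days (adjusted p = 9.97e-05). At 12 days the ratio was 12.5 (3.81 to 64.7) and the fitted log2 fold change 3.46 without the third SP library, and without control replicate 3, which held 2 of the 3 control reads, the fitted values were 5.37 at 3 days and 4.94 at 12 days. WNT3A rose in all alternatives but no longer met the study threshold with the block (adjusted p = 0.000116 at 3 days and 0.00037 at 12 days), with the correction for GC content and gene length (0.00011 and 0.000271), or without any 1 control library (0.000173 to 0.00108). The threshold was also missed without any 1 SP 3 days library (0.000138 to 0.000222 at 3 days and 0.000219 to 0.00028 at 12 days). At 12 days it was missed with only the 2 groups compared as well (0.000644). In the 3 h and 24 h table it stayed under the filter on low counts, with 1, 0 and 0 reads in the control, 0, 1 and 3 at SP 3 h and 5, 18 and 5 at SP 24 h. The level reached remained low, at a mean of 0.466 RPKM at SP 3 days, and its highest library held 37 reads. Such intervals cover counting error only.

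WNT3, the canonical ligand most related to WNT3A, moved the other way. Normalized counts were 537, 519 and 546 in the control of 3 days, 245, 285 and 260.2 at SP 3 days and 279.5, 239 and 280.3 at SP 12 days, and no SP library reached the lowest control. The log2 fold change was -1.02 ± 0.10 (SE), adjusted p = 7.9e-07 at 3 days and -1.01 ± 0.10 (SE), adjusted p = 7.4e-07 at 12 days. At 3 h WNT3 had 241, 186 and 134 against 339, 445 and 490.5 in the control of 24 h and fell (-1.20 ± 0.22 (SE), adjusted p = 0.0087). At 24 h its 306, 283 and 249 also lay under all controls with an adjusted p of 0.062. WNT3 fell there with a correction for GC content and gene length (-0.70, adjusted p = 0.013) and in DESeq2 (-0.62, adjusted p = 0.029). With replicate number as a block it did not pass (-0.62, adjusted p = 0.092). WNT9A rose at 3 days (0.74 ± 0.11 (SE), adjusted p = 5.3e-05) and further by 12 days (1.44 ± 0.11 (SE), adjusted p = 3.2e-08). Its normalized counts were 159.8, 153 and 143 in the control, 248, 265 and 252 at SP 3 days and 459, 397 and 386 at SP 12 days, with no overlap between any of these groups, and at 3 h and 24 h all SP libraries lay above the control with adjusted p = 0.06 and 0.072, the latter 0.049 with replicate number as a block and 0.79 with the GC content and length correction added (log2 fold change 0.04).

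WNT4 rose at all 4 times, by a log2 fold change of 1.05 at 3 h, 0.70 at 24 h, 0.79 at 3 days and 1.32 at 12 days (adjusted p = 0.012, 0.032, 0.04 and 0.0013). Its counts were small, 41.2, 40.5 and 28.7 in the control of 3 days against 63.6, 63.5 and 64.5 at SP 3 days, and the calls at 24 h and 3 days were lost in 10 and 9 of 16 alternatives, a correction for GC content and gene length and the loss of 1 of several libraries among them (adjusted p up to 0.222), and that at 3 h without SP 3 h replicate 2 (adjusted p = 0.0632). Without the third SP 12 days library WNT4 at 12 days was 0.85, adjusted p = 0.0018. WNT7B, a ligand made by lung epithelium, was the most abundant ligand per length, with 31.4 ± 2.0 RPKM (SD, n = 3) in the control of 3 days where the next ligand, WNT3, had 5.51 ± 0.141. In normalized counts it had 2790.4, 2735 and 3076 in that control, 4414, 4657 and 4595 at SP 3 days and 4163, 4852 and 3333 at SP 12 days. WNT7B rose at 3 days (0.67 ± 0.11 (SE), adjusted p = 0.00012) and 12 days (0.52 ± 0.11 (SE), adjusted p = 0.00098), all SP libraries above the control. With the block and the correction for GC content and gene length these were 0.33, adjusted p = 0.031 and 0.29, adjusted p = 0.05, and the call at 12 days was lost. WNT5A, the main ligand of the branch without β-catenin, fell at 12 days alone among the 4 comparisons (-1.03 ± 0.19 (SE), adjusted p = 0.00035), with 34.1, 31.4 and 32.6 normalized counts against 73.0, 68.7 and 58.4 in the control and 59.2, 77.8 and 64.5 at SP 3 days. PORCN lay within a log2 fold change of 0.09 to 0.22 at the 4 times, and WNT6 passed no test (log2 fold change 1.19 at 3 days, adjusted p = 0.1).

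**Figure D2:**
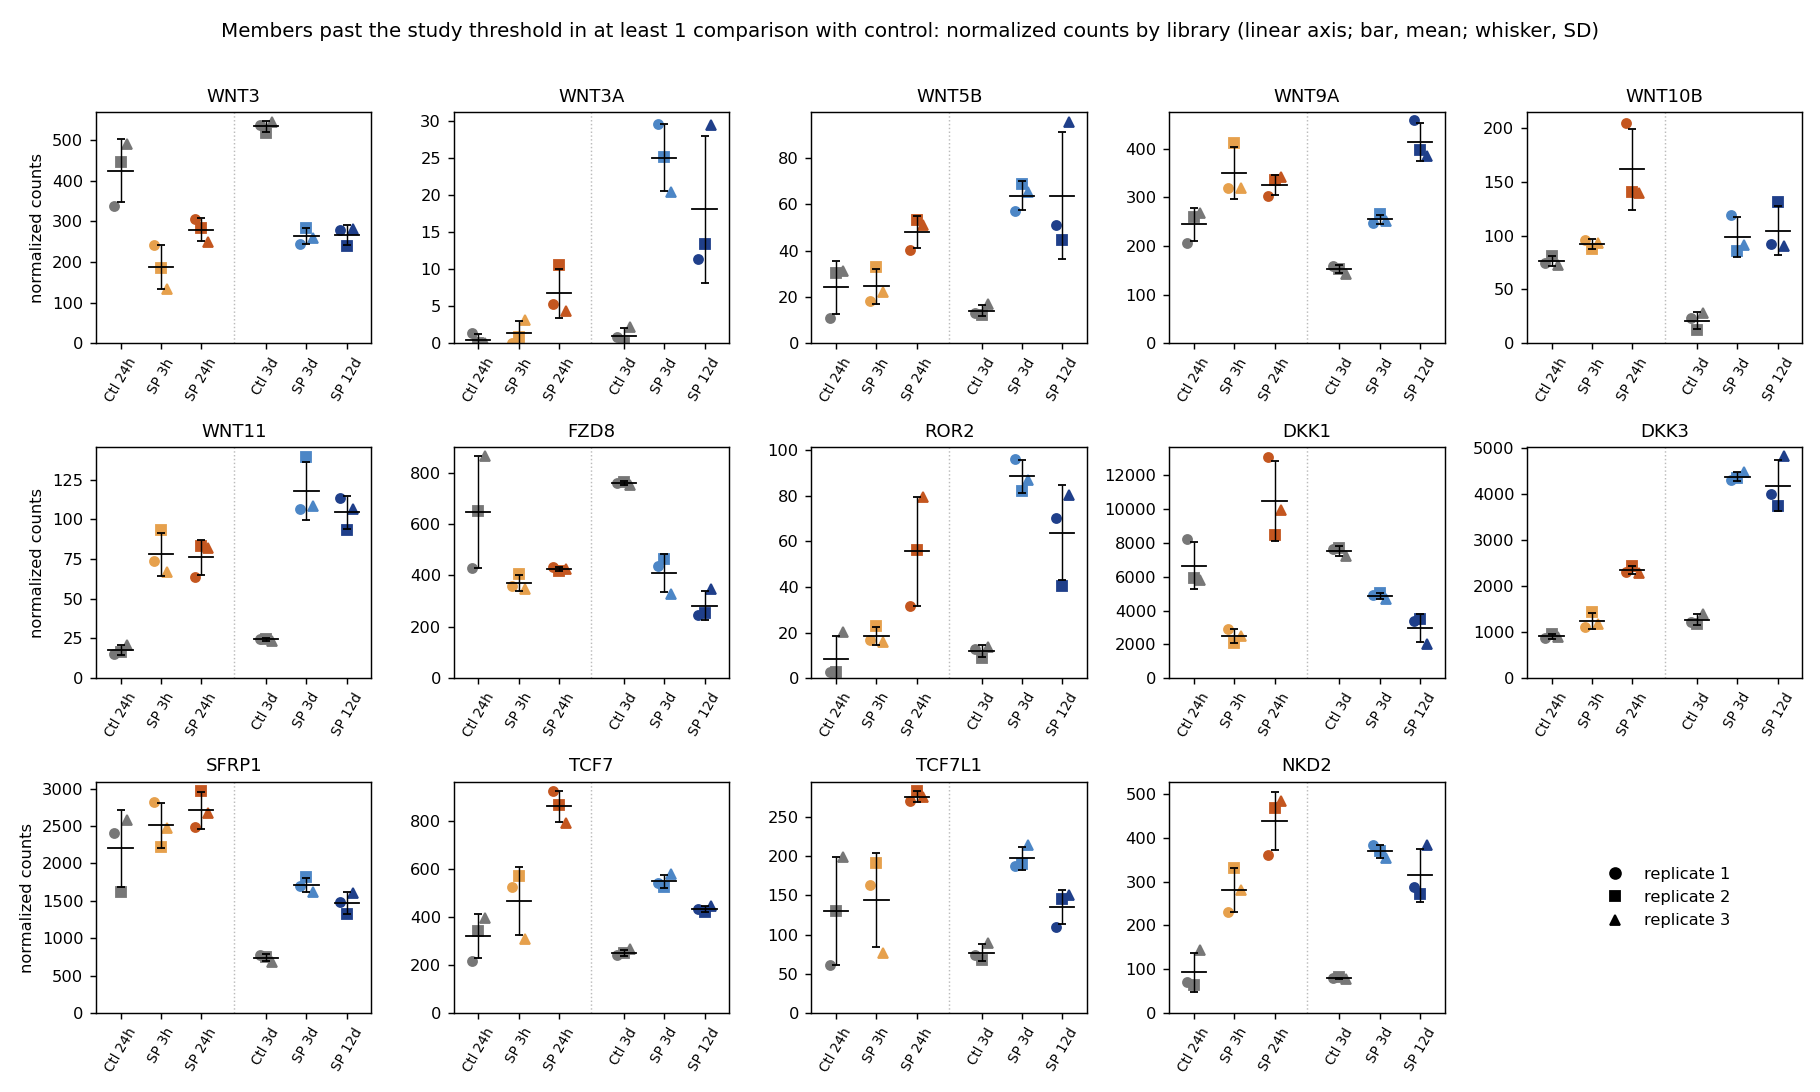
Normalized counts (linear axes from 0) of the 14 members past the study threshold in at least 1 comparison with control, by group and library; circles, squares and triangles are replicates 1, 2 and 3, horizontal bars the mean and whiskers the SD of 3 libraries, and the dotted line parts the tables, which were scaled separately. DKK1 lies at 2095 to 2935 at SP 3 h and at 8475 to 13109 at SP 24 h, either side of its control of 5807 to 8257.

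Frizzled proteins are the membrane receptors of the Wnt ligands, and 9 of the 10 were tested at every time. At 3 days 7 of these rose and 1 fell (25.2% and 23.3% of all genes), and at 12 days 5 rose and 1 fell (26.4% and 23.4%). At 3 h, 3 rose and 1 fell (7.39% and 4.11%), and at 24 h 3 rose (16.8%). FZD8 was the one that fell. It had 761, 766 and 752 normalized counts in the control of 3 days, 437, 465 and 326 at SP 3 days and 245, 255 and 348 at SP 12 days, and the SP libraries lay under the control at both times. The log2 fold change was -0.89 ± 0.14 (SE), adjusted p = 8.5e-05 at 3 days and -1.42 ± 0.14 (SE), adjusted p = 9.5e-07 at 12 days, the latter past the study threshold. At 3 h FZD8 fell as well (-0.81 ± 0.22 (SE), adjusted p = 0.043), a call lost in 10 of 16 alternatives (adjusted p up to 0.126), among them the loss of control replicate 2 or 3 or of any SP library of that table. Its control libraries there had 427, 649.5 and 866 normalized counts and SP 3 h 357, 407 and 347. At 24 h FZD8 was not called, but fell with a correction for GC content and gene length (-1.14, adjusted p = 0.00015) and in DESeq2 (-0.63, adjusted p = 0.034). With replicate number as a block it did not pass at 24 h (-0.58, adjusted p = 0.09).

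FZD4, a receptor of Norrin as well as of Wnt ligands, rose at all 4 times. Normalized counts were 141, 159 and 142 in the control of 24 h, 324, 383 and 355 at SP 3 h and 213, 282 and 257 at SP 24 h. They were 142, 145 and 121 in the control of 3 days, 239, 216 and 182 at SP 3 days and 215, 203 and 258 at SP 12 days. The rise was highest at 3 h (1.27 ± 0.15 (SE), adjusted p = 0.0012), then 0.77, 0.64 and 0.73 at 24 h, 3 days and 12 days (adjusted p = 0.0043, 0.0016 and 0.00048), and no SP library overlapped its control. FZD4 shares 1399 exon bases with PRSS23 on the opposite strand, and as the strand setting of the counting is not stated, reads of the 2 genes there may be mixed. FZD9 rose at 3 h (1.10 ± 0.16 (SE), adjusted p = 0.0032), 3 days (0.91 ± 0.19 (SE), adjusted p = 0.0011) and 12 days (0.62 ± 0.19 (SE), adjusted p = 0.015), with 195, 249 and 238 normalized counts at SP 3 h against 101, 97.9 and 119.9 in its control. Its calls at 3 and 12 days were lost with a correction for GC content and gene length (0.40, adjusted p = 0.071 and 0.22, adjusted p = 0.31), and that at 12 days also without control replicate 3 or SP 12 days replicate 3.

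FZD1 had the smallest adjusted p of the Frizzled genes that rose. It had 237, 265 and 257 normalized counts in the control of 3 days, 472, 511 and 444 at SP 3 days and 406, 365 and 500.1 at SP 12 days, and rose at both times (0.91 ± 0.12 (SE), adjusted p = 1.4e-05, and 0.75 ± 0.12 (SE), adjusted p = 9.1e-05). FZD7 rose at 3 days (1.04 ± 0.19 (SE), adjusted p = 0.001), from 755, 776 and 714 to 1570.2, 1631 and 1404 normalized counts, and at 24 h (0.91 ± 0.29 (SE), adjusted p = 0.045), the latter lost in 8 of 16 alternatives, the loss of any SP 24 h library among them (adjusted p up to 0.169). At 12 days its libraries had 873, 777 and 1401, all above the control, with a log2 fold change of 0.45 and an adjusted p of 0.07 (0.12, adjusted p = 0.25 without the third library). FZD3 rose at 3 days (0.39, adjusted p = 0.0039) and 12 days (0.58, adjusted p = 0.00013). At 24 h FZD1 had an adjusted p of 0.06, or 0.032 with replicate number as a block and 0.0068 with the GC content and length correction added to it. FZD5 rose at 3 h (0.66), 24 h (0.91) and 3 days (0.28). Its call at 24 h was kept in all 16 alternatives, whereas those at 3 h and 3 days were lost in 9 and 7, most of them the loss of 1 library (adjusted p up to 0.161 and 0.139). FZD2, the most abundant Frizzled gene per length with 29.2 ± 1.31 RPKM in the control of 3 days, differed by 0.19 at 3 days and FZD6 by 0.21 at 12 days, small rises that were lost in 9 and 11 of 16 alternatives, mostly with 1 library left out (adjusted p up to 0.233 and 0.178).

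Among the 4 co-receptors, ROR2, a receptor tyrosine kinase for WNT5A, had the largest change. Normalized counts were 12.9, 9.01 and 13.8 in the control of 3 days, 96.4, 82.1 and 87.1 at SP 3 days and 70.5, 40.4 and 80.4 at SP 12 days. All SP libraries exceeded the control, by a log2 fold change of 2.87 ± 0.29 (SE), adjusted p = 7.3e-07 at 3 days and 2.40 ± 0.29 (SE), adjusted p = 5.6e-06 at 12 days. At 24 h it rose as well (2.52 ± 0.59 (SE), adjusted p = 0.012), from 2, 2 and 22 to 30, 96 and 90 reads, and control replicate 3 held 22 of the control's 26 reads. Without that library the log2 fold change was 4.28, adjusted p = 0.0011. The related ROR1 passed no test in the main fit, with log2 fold changes from -0.17 to 0.14, and per length it stayed above ROR2 at SP 3 days (4.16 ± 0.0783 against 0.838 ± 0.0686 RPKM). With a correction for GC content and gene length ROR1 rose at 3 days (0.20, adjusted p = 0.029). LRP6, a co-receptor of the canonical branch, fell slightly at 3 days (-0.28 ± 0.08 (SE), adjusted p = 0.0066) and 12 days (-0.25 ± 0.08 (SE), adjusted p = 0.013), with 2355, 2159.7 and 2363 normalized counts at SP 3 days against 2739.7, 2950.4 and 2674. LRP5 passed no test, but with a correction for GC content and gene length it fell at 3 days (-0.27, adjusted p = 0.0055) and at 12 days (-0.35, adjusted p = 0.00082).

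The secreted antagonists moved in different directions. DKK1, which blocks LRP5 and LRP6, was the most abundant member per length in both controls (115 ± 24.0 RPKM at 24 h and 188 ± 6.87 at 3 days). Its normalized counts were 8257, 5898 and 5807 in the control of 24 h, 2935, 2095 and 2501 at SP 3 h and 13109, 8475 and 9946 at SP 24 h. No library overlapped between the control and either SP group, with SP 3 h below and SP 24 h above the control. The log2 fold change was -1.41 ± 0.20 (SE), adjusted p = 0.0032 at 3 h and 0.66 ± 0.20 (SE), adjusted p = 0.036 at 24 h, the latter lost in 5 of 16 alternatives, among them leaving out control replicate 2 or 3 or SP 24 h replicate 1 or 3 (adjusted p up to 0.115). In the other table DKK1 had 7626, 7726 and 7209 in the control, 4945, 5020.4 and 4668 at SP 3 days and 3409, 3518 and 2029 at SP 12 days. It fell at 3 days (-0.62 ± 0.16 (SE), adjusted p = 0.0088) and, past the study threshold, at 12 days (-1.33 ± 0.17 (SE), adjusted p = 5.6e-05), with the third SP 12 days library the lowest (-1.14, adjusted p = 1.9e-12 without it).

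DKK3, a family member that does not block LRP6 as DKK1 does, rose at all 4 times. Normalized counts were 872, 968 and 885 in the control of 24 h, 1114, 1428 and 1165 at SP 3 h and 2312, 2443 and 2282 at SP 24 h. In the other table they were 1213, 1184 and 1398 in the control, 4303, 4348 and 4484 at SP 3 days and 3988, 3742 and 4814 at SP 12 days. No SP library overlapped its control at any time. The log2 fold change grew from 0.45 ± 0.12 (SE), adjusted p = 0.036 at 3 h, a call lost in 11 of 16 alternatives including the loss of most single libraries (adjusted p up to 0.153), to 1.37 ± 0.12 (SE), adjusted p = 9.1e-05 at 24 h, 1.79 ± 0.10 (SE), adjusted p = 1.4e-09 at 3 days and 1.73 ± 0.10 (SE), adjusted p = 1.6e-09 at 12 days. With replicate number as a block the 24 h value was 1.37, adjusted p = 0.0004, which no longer passes the study threshold. DKK3 shares 5681 exon bases with USP47 on the opposite strand, so part of its reads may belong to that gene. SFRP1, a decoy that binds Wnt ligands, had 778, 745 and 685 normalized counts in the control of 3 days, 1695, 1814 and 1622 at SP 3 days and 1478, 1323 and 1610.1 at SP 12 days. It rose at both times (1.22 ± 0.09 (SE), adjusted p = 3.4e-08, and 1.00 ± 0.09 (SE), adjusted p = 2.5e-07), while at 3 h and 24 h its SP libraries overlapped the control (log2 fold change 0.19 and 0.30).

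WIF1, another decoy of the ligands, lay under the filter on low counts in both tables. It had 1, 0 and 0 reads in the control of 3 days, 8, 5 and 4 at SP 3 days and 12, 9 and 26 at SP 12 days. The ratio of summed reads to the control was 18.5 at 3 days (95% counting interval 2.89 to 772) and 43.3 at 12 days (7.40 to 1745), or 31.5 at 12 days (5.07 to 1303) without the third library. Every SP library held more reads than every control library, though the control's single read leaves the size of the ratio poorly known. In the 3 h and 24 h table WIF1 had at most 1 read in any library.

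LGR4, LGR5 and LGR6 bind R-spondins and so hold the E3 ligases RNF43 and ZNRF3 away from Frizzled receptors. LGR4 was the abundant one, with 45.1 ± 3.85 RPKM in the control of 3 days where LGR6 had 6.41 ± 0.354. It rose at 24 h (0.56 ± 0.12 (SE), adjusted p = 0.0078) and at 3 days (0.30 ± 0.09 (SE), adjusted p = 0.01), the latter lost without SP 3 days replicate 1 (adjusted p = 0.0722), and at 12 days its log2 fold change was -0.01. LGR6 had the smallest adjusted p of these 5 genes. It had normalized counts of 509, 542 and 568 in the control of 3 days, 413, 444 and 501 at SP 3 days and 309, 296 and 412 at SP 12 days, and it fell at 12 days (-0.66 ± 0.12 (SE), adjusted p = 0.00035). RNF43 rose at 3 days (0.63 ± 0.16 (SE), adjusted p = 0.0053) and 12 days (0.61 ± 0.16 (SE), adjusted p = 0.0062), with 462, 481 and 746 normalized counts at SP 12 days against 331, 381 and 405 in the control, and shares 4326 exon bases on its strand with another annotated gene. ZNRF3 passed no test in the main fit, with log2 fold changes between -0.17 and 0.29. Without the third SP 12 days library it was lower than the control at 12 days (-0.37, adjusted p = 0.00076) and higher at 3 days (0.19, adjusted p = 0.034).

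In the destruction complex, AXIN1 and AXIN2 moved apart. AXIN2, a scaffold whose gene is itself a standard target of β-catenin, had 317, 351 and 335 normalized counts in the control of 3 days, 744, 732 and 769.7 at SP 3 days and 508, 500.4 and 937 at SP 12 days. It rose at 3 days (1.16 ± 0.22 (SE), adjusted p = 0.0015) and 12 days (0.96 ± 0.22 (SE), adjusted p = 0.0043), and at 24 h (0.94 ± 0.19 (SE), adjusted p = 0.0068), where it had 674, 779 and 650.5 against 339, 461 and 302. Another annotated gene on its strand shares 1316 of its exon bases. AXIN1, the constitutive scaffold, had 1286, 1182 and 1417 normalized counts in the control of 3 days, 1004, 1019.6 and 1056 at SP 3 days and 970.4, 1029 and 993 at SP 12 days, and fell at both times (-0.34 ± 0.08 (SE), adjusted p = 0.0034, and -0.38 ± 0.08 (SE), adjusted p = 0.0014). With a correction for GC content and gene length these values were -0.72 and -0.64. AXIN1 then also fell at 24 h (-0.64, adjusted p = 0.00056), where it was otherwise not called. CTNNB1, which encodes β-catenin, fell at 24 h (-0.39 ± 0.09 (SE), adjusted p = 0.011), with 6898, 7308 and 7117 normalized counts, all below the 9595, 9059 and 9259 of the control, and at 3 and 12 days its log2 fold changes were -0.11 and 0.05. APC passed no test, and its control libraries of 24 h ranged over 5.23-fold, from 284 to 1484 normalized counts.

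TCF7 and TCF7L1 are 2 of the 4 TCF/LEF factors through which β-catenin acts on genes. TCF7 had 241, 249 and 264 normalized counts in the control of 3 days, 541, 525 and 578 at SP 3 days and 435, 421 and 447 at SP 12 days. It rose at 24 h (1.43 ± 0.26 (SE), adjusted p = 0.0038), 3 days (1.13 ± 0.09 (SE), adjusted p = 1e-07) and 12 days (0.79 ± 0.09 (SE), adjusted p = 4.1e-06), and no SP library at these times overlapped its control. TCF7L1, known mostly as a repressor, had 73.9, 67.6 and 89.2 in that control, 187, 191 and 214 at SP 3 days and 110.2, 145 and 150.5 at SP 12 days. Its log2 fold change was 1.36 ± 0.16 (SE), adjusted p = 3.5e-06 at 3 days and 0.82 ± 0.16 (SE), adjusted p = 0.00048 at 12 days. TCF7L2, the most abundant of the 4 in the control of 3 days (5.30 ± 0.0899 RPKM, with 1.39 ± 0.0668 for TCF7), passed no test. LEF1 lay under the filter, with 0 reads in all 6 control libraries, 3, 3 and 1 at SP 3 days and 3, 2 and 11 at SP 12 days. Against a floor of 3 reads over the control group this is at least 2.53-fold higher at 3 days and at least 4.91-fold higher at 12 days, or at least 2.5-fold without the third SP 12 days library, which held 11 of the 16 reads. The floor leaves out the counting error of the SP reads, and the exact 95% lower limits of the ratios were 1.56 at 3 days, 3.55 at 12 days and 1.38 at 12 days without that library.

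NKD1 and NKD2, inhibitors that bind Dishevelled, both rose at 24 h, 3 days and 12 days. NKD2 had 70.5, 63.4 and 144 normalized counts in the control of 24 h, 230.1, 332 and 281 at SP 3 h and 362, 468 and 485 at SP 24 h. In the other table it had 79.1, 81.1 and 78.6 in the control, 385, 370.2 and 355 at SP 3 days and 289, 272 and 384 at SP 12 days. Every SP library lay above every control of its table. Its log2 fold change was 1.58 ± 0.30 (SE), adjusted p = 0.0091 at 3 h, 2.22 ± 0.30 (SE), adjusted p = 0.00078 at 24 h, 2.22 ± 0.14 (SE), adjusted p = 5.8e-09 at 3 days and 1.99 ± 0.14 (SE), adjusted p = 1.7e-08 at 12 days. The 24 h value was 1.56, adjusted p = 0.00029 with the correction for GC content and gene length.

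NKD1, whose gene is also a known target of β-catenin, had 60.8, 97.9 and 89.7 normalized counts in the control of 24 h, 93.9, 152 and 84.0 at SP 3 h and 296, 353 and 294 at SP 24 h. In the other table it had 178, 171 and 202 in the control, 913, 853 and 1037 at SP 3 days and 379.5, 313 and 1268 at SP 12 days. It rose at 24 h (1.92 ± 0.25 (SE), adjusted p = 0.00072), 3 days (2.35 ± 0.56 (SE), adjusted p = 0.011) and 12 days (1.84 ± 0.56 (SE), adjusted p = 0.029), and SP 3 h overlapped the control. The third SP 12 days library held 3.66 times the mean of the other 2. Without it the log2 fold changes were 2.34, adjusted p = 1.5e-15 at 3 days and 0.89, adjusted p = 8.4e-07 at 12 days, so that the 12 days rise was smaller and both adjusted p-values were lower. With all SP libraries kept, the call at 12 days was lost without any 1 of the 3 controls (adjusted p up to 0.0908).

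The direct comparison of the SP times tested whether members differed between them. From SP 3 h to SP 24 h, 5 members were higher (11.7% of all genes) and 2 lower (8.4%). DKK1 was higher at 24 h (2.07 ± 0.21 (SE), adjusted p = 0.00051), as were NKD1 (1.5 ± 0.25 (SE), adjusted p = 0.0038), DKK3 (0.92 ± 0.12 (SE), adjusted p = 0.0012), TCF7 (0.89 ± 0.26 (SE), adjusted p = 0.039) and WNT10B (0.81 ± 0.18 (SE), adjusted p = 0.015). FZD4 and FZD9 were lower at 24 h than at 3 h (-0.50 and -0.68, adjusted p = 0.036 and 0.016). Between SP 12 days and SP 3 days, 1 member was higher (4.46% of all genes), WNT9A (0.70 ± 0.10 (SE), adjusted p = 0.00086), and 8 were lower (3.65% of all genes). Of the 8, WNT5A differed most (-1.04 ± 0.19 (SE), adjusted p = 0.004), then DKK1 (-0.71 ± 0.17 (SE), adjusted p = 0.026), and the other 6 (FZD2, FZD5, FZD8, LGR4, TCF7 and TCF7L1) had log2 differences of -0.53 to -0.31. With a correction for GC content and gene length, 6 members were higher and 5 lower at SP 24 h than at SP 3 h, where 2331 and 2102 of 17377 genes were. Of the calls between SP times, DKK1, DKK3 and NKD1 at 24 h against 3 h and WNT5A, WNT9A and FZD2 at 12 days against 3 days were kept in all 16 alternatives. The other 10 were lost in 2 to 11 of them, mostly with 1 library left out (adjusted p up to 0.167), except WNT10B, which was lost with the correction for GC content and gene length alone or with the block added.

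The count of lower members depends on replicate 3 of SP 12 days. Without that library 21 members were lower and 4 higher at 12 days than at 3 days, where 14.5% of all genes were lower and 13.6% higher. Of the 40 members tested, 24 were higher in replicate 3 than in both other SP 12 days libraries and 11 lower than both, and 8 members had at least 1.5 times the mean of the other 2: WNT6, NKD1, WNT3A, WNT4, WNT5B, AXIN2, FZD7 and RNF43. These shares were not counted over all genes, so they are not read as a trait of the members. Without it NKD1 (-1.45, adjusted p = 4.9e-10), FZD7 (-0.91, adjusted p = 3.7e-08), AXIN2 (-0.58, adjusted p = 2.2e-05) and ZNRF3 (-0.56, adjusted p = 2.8e-05) were lower at 12 days than at 3 days. Against the control of 3 days, AXIN2 was still higher without it (0.58, adjusted p = 9e-06), as was RNF43 (0.33, adjusted p = 0.0071), while 11 members in place of 7 were lower, where 27.6% of all genes were lower.

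Of the members with few reads, FZD10 had 0 to 3 reads, LGR5 0 to 3 and WNT10A 0 to 5 in any library, and none of these was tested. WNT7A was tested in the main fit of the 3 h and 24 h table alone, where its control had 5, 10 and 44 reads and it passed no test. With a correction for GC content and gene length WNT7A fell at 24 h (-1.43, adjusted p = 0.047). In the other table it had 0, 0 and 1 reads in the control, 3, 2 and 2 at SP 3 days and 16, 22 and 11 at SP 12 days, a ratio of summed reads of 45.1 at 12 days (95% counting interval 7.73 to 1818) on a control of 1 read. Only without the third SP 12 days library is a fit of WNT7A given there. It was then higher than that control at 12 days (5.35, adjusted p = 9.7e-07) and 3 days (2.52, adjusted p = 0.049). WNT6 had 7, 5 and 13 reads in the control of 3 days, 20, 20 and 13 at SP 3 days and 2, 1 and 17 at SP 12 days, and without the third SP 12 days library it was lower at 12 days than in the control (-2.39, adjusted p = 0.0088). In the main fit, 8 tested members passed no comparison with control: WNT6, WNT7A, PORCN, LRP5, ROR1, ZNRF3, APC and TCF7L2.

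Per length, the members spanned from DKK1 to genes close to 0. In the control of 3 days DKK1 led with 188 ± 6.87 RPKM, then came LGR4 (45.1 ± 3.85) and LRP5 (40.1 ± 5.63), whose spreads overlap, WNT7B (31.4 ± 2.0) and FZD2 (29.2 ± 1.31), whose spreads also overlap, and CTNNB1 (25.9 ± 1.56). At SP 12 days DKK1 had fallen to 74.8 ± 20.8 RPKM and remained first, while DKK3 went from 5.89 ± 0.540 in the control to 19.5 ± 2.61 RPKM, above SFRP1 (17.3 ± 1.69) by less than their spread.

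**Figure D3:**
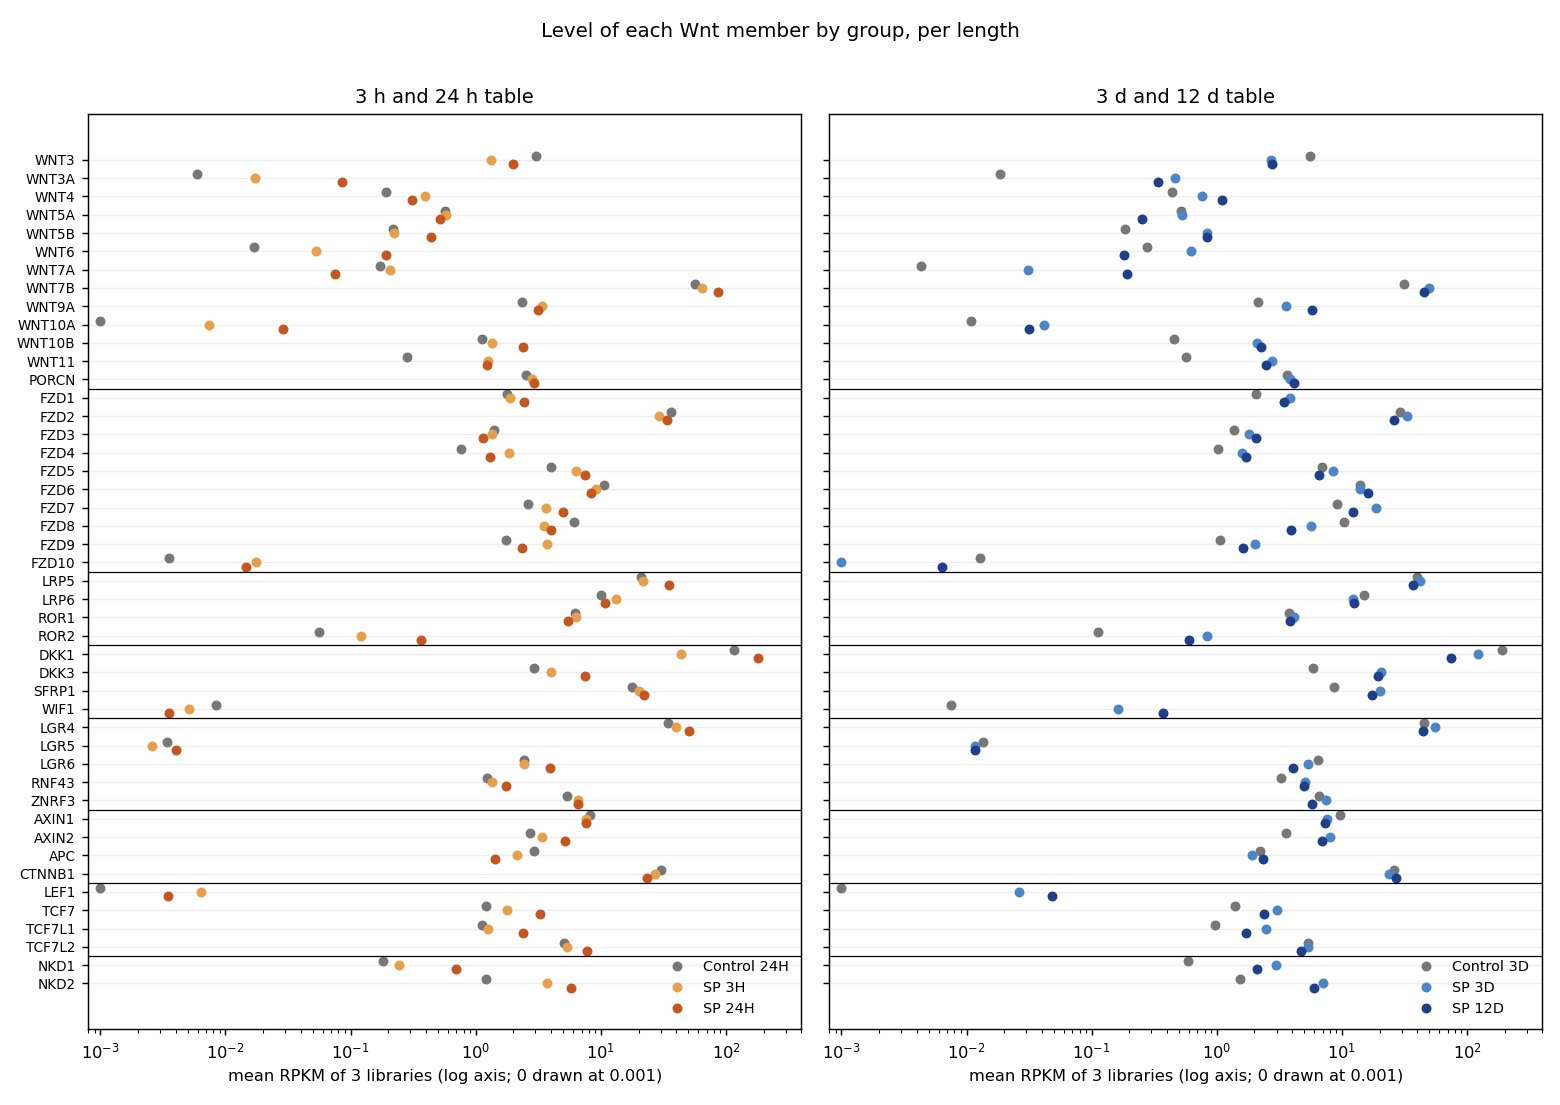
Mean RPKM of 3 libraries (log axis; a mean of 0 is drawn at 0.001) for each of the 46 members by group, in the 3 h and 24 h table (left) and the 3 and 12 days table (right), which were scaled separately; lines part the roles. DKK1 lies furthest right of the members in the control and WNT3A, WIF1 and LEF1 move right from near 0 at SP 3 and 12 days.

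The other core genes of the pathway were listed by hand (46 genes), of which 34 were tested at 3 and 12 days. Of these 34, 16 rose and 4 fell at 3 days and 12 rose and 4 fell at 12 days, where 25.2% and 23.3% of all genes rose and fell at 3 days and 26.4% and 23.4% at 12 days, with median log2 fold changes of 0.20 and 0.14. KREMEN2, a DKK1 receptor, had 37.0, 46.2 and 29.7 normalized counts in the control of 3 days, 493, 508 and 387 at SP 3 days and 344, 337 and 487 at SP 12 days. It passed the study threshold at 24 h (2.61 ± 0.15 (SE), adjusted p = 2.1e-05), 3 days (3.62 ± 0.20 (SE), adjusted p = 2e-09) and 12 days (3.38 ± 0.20 (SE), adjusted p = 3.6e-09), and its relative KREMEN1 did so at 3 days (1.32 ± 0.14 (SE), adjusted p = 2.1e-06). NOTUM, which strips the lipid from Wnt ligands and also stands in the list of targets, rose at 3 days (3.73 ± 0.31 (SE), adjusted p = 3.4e-07) and 12 days (2.83 ± 0.32 (SE), adjusted p = 6.4e-06), as did the decoy SFRP5 (2.40 and 1.80, adjusted p = 6.1e-08 and 1.7e-06) and the corepressor TLE2 (1.41 and 1.29, adjusted p = 5.8e-07 and 1.4e-06). At 24 h 8 of 33 rose (24.2%, with 16.8% of all genes), and at 3 h 2 of 33 rose and 3 fell (6.06% and 9.09%, with 7.39% and 4.11% of all genes).

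Of 16 tested genes of planar cell polarity and other branches without β-catenin, 9 rose at each of 3 and 12 days, while 2 fell at 3 days and 3 at 12 days (all genes 25.2% and 26.4% higher, 23.3% and 23.4% lower). At 24 h 4 of the 16 rose and 1 fell (16.8% and 12% of all genes), and at 3 h 1 rose (7.39%). PTK7, a pseudokinase receptor of this branch, passed the study threshold at 3 days (2.97 ± 0.16 (SE), adjusted p = 2.8e-09) and 12 days (2.40 ± 0.16 (SE), adjusted p = 2.2e-08), as did DAAM1, a formin, at 3 days (1.16 ± 0.12 (SE), adjusted p = 9e-07) and 12 days (1.38 ± 0.12 (SE), adjusted p = 1.1e-07). Of 15 tested genes commonly used as targets of β-catenin and TCF, 9 rose and 1 fell at 3 days, and 11 rose and 1 fell at 12 days, beside the same shares of all genes, with medians of 0.47 and 0.81 where the median of all genes was -0.02 and 0.00. Past the study threshold were NOTUM and BMP4 at both times (BMP4 1.16 ± 0.13 (SE), adjusted p = 8e-06 at 3 days and 1.29 ± 0.13 (SE), adjusted p = 2.8e-06 at 12 days), and CCND1, a cyclin of the cell cycle (1.08 ± 0.11 (SE), adjusted p = 7e-07), and TNFRSF19 (1.28 ± 0.20 (SE), adjusted p = 9.4e-05) at 12 days. CD44, an adhesion receptor, had the smallest adjusted p of this list without reaching 2-fold (0.94 ± 0.08 (SE), adjusted p = 9.7e-08 at 12 days). At 3 h, 1 of the 15 rose (7.39% of all genes), and at 24 h 4 rose and 2 fell (16.8% and 12%). Many genes of this list are known to respond to other pathways too.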

How the data were processed

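RNA from 18 A549 libraries, 3 per group, had been sequenced as paired ends, and the authors deposited 2 tables of raw read counts per Ensembl gene. Per the submitters' notes, reads were aligned with STAR 2.7.9a to GRCh38 and counted with featureCounts, and the strand setting is not given in the sources used here. Reads that fall where genes overlap may therefore be assigned to either.

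Symbols came from the GENCODE annotation of GRCh38. Each table was fitted on its own with edgeR 4.0.16 in R 4.3.3 (filterByExpr with a minimum count of 10, TMM, robust quasi-likelihood), all 9 libraries in 1 fit, with Benjamini-Hochberg adjustment over all 17775 or 17377 genes tested. Normalized counts are reads divided by the TMM-scaled library size and multiplied by the mean scaled size of the table's 9 libraries; RPKM also divides by exon length. Nothing in the labels says that the 3 libraries of a group are separate cultures, so p-values measure the spread between these libraries. The study describes its 3 h and 24 h RNA-seq as done in biological replicates. Ratios of few reads have exact 95% intervals, which cover counting error only. The depth of 14187401 to 43765330 reads limits what can be said of members with a few reads.

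The members and lists were chosen with earlier results of these data known. Members are named with all libraries where they passed the study threshold in a comparison with control or had the smallest adjusted p of their role group. Members under the filter are named with their reads, and other pathway genes only where they passed the study threshold or led their list.

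Deviations from the group means correlated between control and SP libraries of 24 h with the same replicate number (0.50, 0.17 and 0.50). With different numbers they correlated by -0.55 to 0.17 there, and by up to 0.58 between control and SP 3 h. Pairing by number at 24 h was taken from this and is not shown by it, so calls gained with the block rest on an assumed pairing. In the other pairs of groups the same-number correlations were small, negative or of mixed sign. The alternatives were DESeq2 1.42.0, RLE size factors, no filter, only the 2 groups compared, replicate number as a block, offsets for GC content and exon length (mgcv 1.9.3), both together, and each library left out in turn. The fit was tested on simulated data with known changes. Promoter sequences are RefSeq's.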

Additional observations from a re-analysis of the deposited data

Results flagged for a closer look

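Between SP times, 14 members differed in a direct edgeR test of the SP groups. These were 7 of 39 between 3 h and 24 h, where 20.1% of all genes were called, and 9 of 40 between 3 and 12 days, where 8.1% were. No control of 3 h or of 12 days was analysed here, so SP and time in culture cannot be told apart in any of these values. From 3 h to 24 h the log2 difference was 2.07 (adjusted p = 0.00051) for DKK1, which lay below the control at 3 h and above it at 24 h. It was 1.5 (adjusted p = 0.00379) for NKD1, 0.92 (adjusted p = 0.00121) for DKK3, 0.89 (adjusted p = 0.0392) for TCF7 and 0.81 (adjusted p = 0.0148) for WNT10B. For FZD4 it was -0.50 (adjusted p = 0.0364) and for FZD9 -0.68 (adjusted p = 0.0163), while at 24 h FZD4 rose over the control and FZD9 was not called.

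From 3 days to 12 days it was -1.04 (adjusted p = 0.00396) for WNT5A and 0.70 (adjusted p = 0.000859) for WNT9A. DKK1 differed by -0.71 (adjusted p = 0.0262), FZD8 by -0.53 (adjusted p = 0.0367), TCF7L1 by -0.53 (adjusted p = 0.036) and FZD5 by -0.36 (adjusted p = 0.0356). For FZD2 the difference was -0.34 (adjusted p = 0.00891), for TCF7 -0.33 (adjusted p = 0.0319) and for LGR4 -0.31 (adjusted p = 0.0412). Replicate 3 of SP 12 days stood apart from the other 2.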

How the results depend on the processing

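Of the 98 calls of members in the 6 comparisons, 71 were kept in all 16 alternatives, and no called value changed sign. Of the values not called, 131 changed sign under an alternative, 23 of them with the offsets for GC content and length and 22 with the block added to these, and 6 of the 131 passed the test with the opposite sign. These 6 were the log2 fold change of FZD6 at 3 days, 0.18 with offsets for GC content and length and 0.18 with the block added (-0.01 as reported), that of LRP5 at 3 days, -0.27 in both, and that of AXIN1 between SP 24 h and SP 3 h, -0.34 in both; the cause was not tested. With these offsets 6 members fell at 24 h in place of 1 (2605 of 17377 genes) and 2 passed the study threshold there (388 genes). With them 5 members were lower at SP 24 h than at SP 3 h (2102 genes). Another 4 calls were of members lower at SP 12 days than at SP 3 days (693 of 17775 genes). The block added to the offsets gave the same counts (2887, 292, 2459 and 679 genes). It also gave 5 that fell at 3 h (1285 genes) and 9 higher at SP 24 h than at SP 3 h (2647 genes). DESeq2 put 6 members past the study threshold at 3 h and 6 at 24 h, where 415 and 1192 of 17377 genes passed it. It called 3 members lower at 24 h (2593 genes) and 8 higher at SP 24 h than at SP 3 h (2390 genes). Without a filter the study threshold was passed by 4 members at 3 h and 5 at 24 h (408 and 1131 of 36979 genes). Without it 3 fell at 24 h (1756 genes) and 2 were higher at SP 12 days than at SP 3 days (1147 of 39415 genes). Fitting only the 2 groups compared gave 2 that fell at 24 h (1685 of 17084 genes) and 0 past the study threshold there (4 genes). It gave 7 past it at 12 days (1211 of 17512 genes). Between SP times it gave 11 higher at 24 h than at 3 h (2347 of 17110 genes) and 2 lower at 12 days than at 3 days (402 of 17140). The study threshold was passed by 0 members at 24 h with RLE size factors (97 of 17377 genes) and by 0 with replicate number as a block (2 genes). EdgeR's main count there was 1 (DKK3, with 119 of all genes) and DESeq2's 6. The block also called WNT5B, WNT9A and FZD1 at 24 h, of which FZD1 alone was called with the offsets added to it (adjusted p = 0.0574 for WNT5B, 0.791 for WNT9A and 0.00684 for FZD1). In the other comparisons, where the numbers were not taken to pair the libraries, the block moved no count by more than 1.5 times.

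With 1 library left out, 4 to 7 members rose at 3 h (4 without SP 3 h replicate 2, where 621 of 17816 genes rose). At 24 h 1 to 4 fell. The count was 4 without control replicate 1 (1476 of 18104 genes) and 3 without control replicate 3 (3093 of 17861). It was 2 without SP 3 h replicate 1 or 3 (1727 of 18062 and 2137 of 18103 genes). At 24 h 0 to 1 passed the study threshold, the 1 being kept only without SP 3 h replicate 2 (87 of 17816 genes). At 12 days 7 to 11 fell (11 without SP 12 days replicate 3, where 4990 of 18067 genes fell). There 7 to 13 passed the study threshold (7 without control replicate 2 or 3, with 1211 of 18218 and 1206 of 18172 genes). From SP 3 h to SP 24 h 4 to 10 were higher (10 without control replicate 3, with 2404 of 17861 genes). There 0 to 3 were lower (0 or 1 without any SP library, with 562 to 991 genes). From SP 3 days to SP 12 days 1 to 4 were higher (4 without SP 12 days replicate 3, with 2456 of 18067 genes). Members lower numbered 2 to 21 (21 without that library, with 2617 genes). They numbered 2 to 4 without control replicate 1 or any other SP library, with 254 to 467 genes. The 3 h and 24 h table had the larger spread between libraries, and members with a few reads could not be tested at this depth.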
